A study of Mus musculus with 7 samples.

Results

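Osteoclast genes and the RANKL axis were followed through 7 sequencing libraries of mouse hindlimb tendon. The set comprised 10 genes chosen by symbol, of 42689 genes to which the transcripts were assigned: Acp5, Ctsk, Mmp9, Atp6v0d2, Ocstamp, Dcstamp, Oscar, Tnfsf11 (encoding RANKL), Tnfrsf11a (RANK) and Tnfrsf11b (osteoprotegerin, OPG). All 10 were found, and 7 of them had enough reads to be tested. The study addressed the kinase TAK1 in a model of musculoskeletal injury that leads to heterotopic ossification, the formation of cartilage and bone in soft tissue. The labels of these 7 libraries name no deletion and no drug.

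All mice were of C57BL/6 background, and no age is given. The tenotomy group (n = 2) was tissue of the cut Achilles tendon of the left leg, taken between the calf muscle and the heel bone, 3 weeks after mice had received a burn of the back (a block at 60 °C for 18 s over 30% of the body surface) and the cut. The contralateral group (n = 3) was the uncut tendon of the right leg of such burned mice, 3 weeks after injury. The uninjured group (n = 2) was tendon of wild-type mice given neither burn nor cut. The labels do not say whether libraries came from separate animals, whether animals were pooled, or whether tenotomy and contralateral libraries came from the same mice. P-values therefore measure the spread between these libraries, part of which may be technical.

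Osteoclasts are the multinucleated cells that resorb bone and mineralized cartilage. They form by fusion of cells of the macrophage lineage when RANKL, made by stromal cells, osteoblasts, chondrocytes and T cells, binds its receptor RANK on the precursor. OPG is a soluble decoy that binds RANKL and keeps it from RANK. Signals from RANK, together with co-stimulatory receptors such as OSCAR, induce the transcription factor NFATc1, which turns on the genes of fusion, acid secretion and matrix digestion. Several of these genes are not restricted to osteoclasts: Ctsk is also made by fibroblast-like cells, and Mmp9 and Acp5 by other myeloid cells.

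The libraries held 25927171 to 36725106 estimated counts. The 5 most abundant features took 76.4% to 81.4% of them, which left 4933818 to 8375440 counts per library for all other genes. Levels below are CPM, counts relative to a library size corrected for composition by edgeR's TMM factors, and 3 counts, taken as the limit that a count of 0 allows, corresponded to 0.0816 to 0.112 CPM. The library labelled uninjured replicate 1 lay at a Euclidean distance of 59.6 and 61.1 from the tenotomy libraries (log2 CPM of 16028 genes) but at 114.0 from uninjured replicate 2, which lay at 64.5 to 67.4 from the contralateral libraries. The files used here do not settle whether the label of uninjured replicate 1 is right, and every comparison with the uninjured group mean rests on it. Results that involve the uninjured group are therefore given for each of its libraries. Tendon markers were present: each of Scx, Mkx, Tnmd, Thbs4 and Fmod had counts in every library.

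Of the genes for bone-resorbing enzymes, Ctsk and Mmp9 rose at the tenotomy site, each by about the same factor, while Acp5 showed no such difference. The gene of the proton pump subunit, Atp6v0d2, rose most of the 7 genes tested. Fusion and co-stimulation genes were near the limit of detection or differed little. RANKL counts were found in both tenotomy libraries and in none of the contralateral ones, on 12 counts in all. In the edgeR quasi-likelihood test with Benjamini-Hochberg adjustment over 16028 genes, 3 of the 7 genes tested passed 0.05 and all 3 were higher, where 29.0% of all genes passed in either direction, 13.6% as higher and 15.4% as lower. Both tenotomy libraries lay above all contralateral libraries for 6 of the 7 genes, as for 31.9% of all genes tested. Mmp9 and Atp6v0d2 passed the filter on low counts through the libraries in which they were high, so this share does not describe the whole set. Tnfrsf11b had fewer than 10 counts in contralateral replicates 1 and 3 and in uninjured replicate 2. It too passed with the help of libraries in which it was high.

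**Figure D1:**
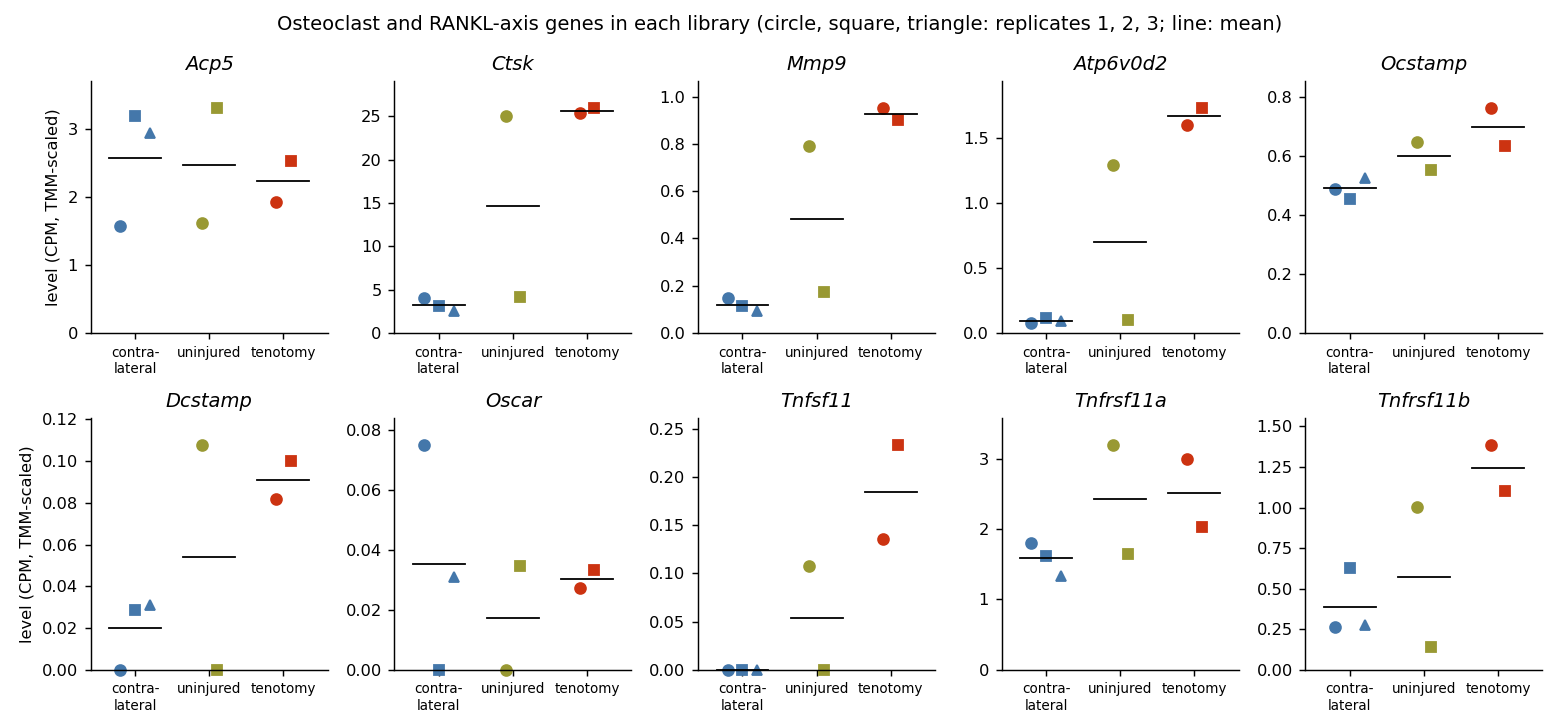
Level of each of the 10 genes in every library (vertical axes in CPM, each with its own scale from 0), by group on the horizontal axis; symbols are replicates and lines are group means. For Ctsk, Mmp9 and Atp6v0d2 both tenotomy libraries and uninjured replicate 1 lie high, and the contralateral libraries and uninjured replicate 2 lie low; Acp5 does not follow this order.

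Ctsk (ENSMUSG00000028111.4; GRCm38 chromosome 3, 95499256 to 95509362, plus strand) encodes cathepsin K, the collagen-digesting cysteine protease of the resorption pit. It was at 25.4 and 25.96 CPM (933 and 779 counts) in tenotomy replicates 1 and 2, and at 4.05, 3.16 and 2.54 CPM (108, 111 and 82 counts) in contralateral replicates 1 to 3. It was at 25.0 CPM (697 counts) in uninjured replicate 1 and 4.16 CPM (121 counts) in uninjured replicate 2. The tenotomy libraries lay close together and above every contralateral library, and the uninjured libraries fell one on each side. The group means were 25.7 CPM ± 0.417 (SD, n = 2) and 3.25 ± 0.760 (SD, n = 3), a 7.92-fold difference. On the log2 scale this was a change of 2.99 with SE 0.62 (edgeR adjusted p = 0.0167). Upper quartile scaling shifted it to 3.10.

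Mmp9 (ENSMUSG00000017737.2; chromosome 2, 164940780 to 164955850, plus strand) encodes gelatinase B, a metalloproteinase used by osteoclasts and neutrophils among others. It was at 0.952 and 0.900 CPM (35 and 27 counts) in the tenotomy libraries and at 0.1499, 0.114 and 0.0928 CPM (4, 4 and 3 counts) in the contralateral libraries. Uninjured replicate 1 had 0.790 CPM (22 counts) and uninjured replicate 2 had 0.172 CPM (5 counts). Again the tenotomy libraries lay above all contralateral ones, though the low values rest on few reads. The difference was 7.68-fold (log2 fold change 2.94, SE 0.59, edgeR adjusted p = 0.0167). With TPM scaled back to counts by gene length in place of estimated counts, it was 1.86 on the log2 scale (edgeR adjusted p = 0.0884). In contralateral replicate 2, 64.5% of the Mmp9 counts (2.58 of 4) were assigned to an 1125-base processed transcript (ENSMUST00000144917.1). In contralateral replicate 1, 20.4% (0.81 of 4) were assigned to a 416-base transcript (ENSMUST00000137626.1). Shorter transcripts weigh more per read on the length-based scale, and their part in the lower estimate was not tested. In the tenotomy libraries 97.1% and 99.0% of the counts fell on the 3175-base coding transcript.

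Acp5 (ENSMUSG00000001348.15; chromosome 9, 22126727 to 22135711, minus strand) encodes tartrate-resistant acid phosphatase, the enzyme whose stain is used to recognise osteoclasts. It was at 1.93 and 2.53 CPM (71 and 76 counts) in the tenotomy libraries and at 1.57, 3.19 and 2.94 CPM (42, 112 and 95 counts) in the contralateral libraries. Uninjured replicates 1 and 2 had 1.62 and 3.30 CPM (45 and 96 counts). Both tenotomy values fell inside the contralateral range, and uninjured replicate 1 was near the lowest contralateral library. The log2 fold change was -0.22 (SE 0.38, edgeR adjusted p = 0.698). Over all alternatives in processing it ranged from -0.47 to -0.03, with adjusted p-values from 0.346 to 1.

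The split of Acp5 between its transcripts varied between the tenotomy libraries more than between contralateral ones. ENSMUST00000115315.2 held 73.0% of the counts in tenotomy replicate 1 and 20.3% in replicate 2, and 57.0%, 57.7% and 46.7% in the contralateral libraries. Exons of Acp5 also overlap an antisense gene, 6530413G14Rik, which was not analysed here, and no source used here says whether counting used strand.

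The level of Ctsk relative to Acp5 can be read per transcript length from the deposited TPM (transcript abundance relative to the library, corrected for length). The ratio of Ctsk to Acp5 TPM was 11.9 and 9.5 in the tenotomy libraries and 2.34, 0.901 and 0.789 in the contralateral libraries. It was 14.1 in uninjured replicate 1 and 1.15 in uninjured replicate 2. At the tenotomy site Ctsk TPM thus exceeded Acp5 TPM in each library, whereas in contralateral tendon their ranges overlapped (0.248 to 0.501 TPM for Ctsk, 0.214 to 0.433 TPM for Acp5).

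Sequences upstream of the start sites are shown for Ctsk, which rose, for Acp5, which did not pass, and for the ligand gene Tnfsf11. They are the 250 bases before a RefSeq start on GRCm38.p6, 5′ to 3′ on the gene's own strand. RefSeq windows were matched for 5 of the 10 genes by symbol. The Ctsk window is chr3:95498960-95499209 (plus strand), the Acp5 window chr9:22130599-22130848 (minus strand, before the start of ENSMUST00000115315.2, one of 3 RefSeq starts of the gene), and the Tnfsf11 window chr14:78308044-78308293 (minus strand). Capitals mark matches, on either strand, to the PU.1 motif GAGGAA, the MITF motif CACATG, the AP-1 motif TGANTCA or the TATA box TATAAA.
Ctsk: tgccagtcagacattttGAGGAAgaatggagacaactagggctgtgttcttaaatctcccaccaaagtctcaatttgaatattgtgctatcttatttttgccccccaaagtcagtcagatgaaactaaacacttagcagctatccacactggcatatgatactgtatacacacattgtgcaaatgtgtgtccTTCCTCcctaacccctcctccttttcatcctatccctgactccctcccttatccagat
Acp5: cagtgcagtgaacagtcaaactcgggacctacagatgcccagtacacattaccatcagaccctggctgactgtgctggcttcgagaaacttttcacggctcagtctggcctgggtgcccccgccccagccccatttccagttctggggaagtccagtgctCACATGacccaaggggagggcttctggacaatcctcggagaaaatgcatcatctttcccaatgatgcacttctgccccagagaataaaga
Tnfsf11: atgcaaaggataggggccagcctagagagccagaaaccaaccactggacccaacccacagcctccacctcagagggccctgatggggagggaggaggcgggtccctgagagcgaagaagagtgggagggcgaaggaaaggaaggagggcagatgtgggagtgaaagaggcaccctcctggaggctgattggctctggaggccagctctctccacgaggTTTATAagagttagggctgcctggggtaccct

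The Ctsk window held 2 matches to GAGGAA, at 233 to 228 and at 58 to 53 bases before the start, and no match to the other motifs in capitals. Of 32817 distinct RefSeq windows of the same length, 23.3% held GAGGAA. The Acp5 window shown held 1 match to CACATG, at 90 to 85 bases before the start (12.3% of all windows held it), and 2 matches to the NFAT core GGAAA, which is not in capitals and was found in 55.6% of all windows. The other Acp5 windows held no CACATG and 1 match each to GGAAA. The Tnfsf11 window held 1 match to TATAAA, at 32 to 27 bases before the start (12.4% of all windows), and 1 to GGAAA. None of the 3 windows held TGANTCA, found in 6.75% of all windows. These matches describe letters and are not evidence of binding.

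Atp6v0d2 (ENSMUSG00000028238.6; chromosome 4, 19876841 to 19922605, minus strand) encodes the d2 subunit of the proton pump that acidifies the resorption pit, a subunit also needed for precursor fusion and found in some macrophages. It was at 1.60 and 1.73 CPM (59 and 52 counts) in the tenotomy libraries and at 0.0750, 0.114 and 0.0928 CPM (2, 4 and 3 counts) in the contralateral libraries. Uninjured replicate 1 had 1.29 CPM (36 counts) and uninjured replicate 2 had 0.103 CPM (3 counts). The tenotomy libraries lay above all contralateral libraries, where the gene was at about the level of 3 counts. The fitted difference was 16.8-fold (log2 fold change 4.07, SE 0.82, edgeR adjusted p = 0.0167). From the summed counts alone, 111 against 9, the ratio was 17.4 with a 95% exact interval of 8.84 to 39.0 that covers counting error and no other.

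The calls of Ctsk, Mmp9 and Atp6v0d2 depended on which libraries were fitted. In the edgeR fit they missed 0.05 when any single tenotomy or contralateral library was left out (adjusted p = 0.05005 to 0.124), as did every other gene (0.00% passed), while their log2 fold changes stayed between 2.80 and 4.23. Of the 10 genes, 5 passed without the filter on low counts (17.3% of all genes did). The number was also 5 with only the tenotomy and contralateral libraries fitted (46.1%), and without uninjured replicate 1 (42.9%) or replicate 2 (43.5%). With the series of sample numbers as a covariate, the tenotomy group rested on replicate 1 alone against contralateral tendon. That fit gave log2 fold changes of 2.98 for Ctsk, 2.98 for Mmp9 and 4.02 for Atp6v0d2. With length-scaled TPM 2 passed (20.2%), with DESeq2 3 passed (23.4%) and against a 1.5-fold change 3 passed (9.76%). In bulk tissue, fewer cells of a type and less RNA per cell cannot be told apart, so these differences are in RNA of the tissue piece. Relative to the contralateral mean, the difference in log2 CPM was 2.97 and 3.00 for Ctsk in tenotomy replicates 1 and 2, 2.48 and 2.41 for Mmp9, and 3.41 and 3.51 for Atp6v0d2. Replicate 1 carries a sample number of the same series as the contralateral libraries and replicate 2 does not, and no label calls the series a batch.

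The fusion genes gave little signal. Ocstamp (ENSMUSG00000027670.4; chromosome 2, 165393760 to 165400405, minus strand) and Dcstamp (ENSMUSG00000022303.9; chromosome 15, 39745930 to 39760938, plus strand) encode membrane proteins required for osteoclast and giant cell fusion. Ocstamp was at 0.762 and 0.633 CPM (28 and 19 counts) in the tenotomy libraries and 0.487, 0.455 and 0.526 CPM (13, 16 and 17 counts) in the contralateral libraries. The groups did not overlap, and the difference did not pass the test (log2 fold change 0.51, SE 0.26, edgeR adjusted p = 0.165). Uninjured replicates 1 and 2, at 0.647 and 0.551 CPM (18 and 16 counts), both lay above all contralateral libraries, and replicate 1 lay within the tenotomy range. Contralateral against uninjured, the difference did not pass either (log2 fold change -0.29, edgeR adjusted p = 0.616).

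Dcstamp had 3 counts in each tenotomy library, 0, 1 and 1 in the contralateral libraries, and 3 and 0 in uninjured replicates 1 and 2. It was removed by the filter on low counts. The summed counts, 6 against 2, gave a ratio of 4.23 with an exact interval of 0.757 to 42.9, so no difference was detectable at this depth. Oscar (ENSMUSG00000054594.13; chromosome 7, 3609813 to 3616157, minus strand), the co-stimulatory receptor of osteoclast precursors, had between 0 and 2 counts in every library and was likewise removed. Its ratio on 2 against 3 summed counts was 0.940 (interval 0.0785 to 8.21).

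Tnfsf11 (ENSMUSG00000022015.8; chromosome 14, 78277445 to 78308043, minus strand), the gene of the osteoclast-inducing ligand RANKL, had 5 and 7 counts in tenotomy replicates 1 and 2, or 0.136 and 0.233 CPM. The 3 contralateral libraries had 0 counts each, uninjured replicate 1 had 3 counts (0.108 CPM) and uninjured replicate 2 had 0. Both tenotomy libraries thus had reads and every contralateral library had none. The summed counts, 12 against 0, put RANKL at least 3.92-fold higher at the tenotomy site, the lower end of the exact 95% interval of the ratio, which covers counting error and no other. Against a floor of 3 counts over the contralateral group the ratio was 5.64. The gene did not pass the filter on low counts and so was not tested in the fit of 16028 genes. Without the filter, where 17.3% of 29100 genes passed, it passed in this comparison (edgeR adjusted p = 0.0288).

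Tnfrsf11a (ENSMUSG00000026321.7; chromosome 1, 105780718 to 105847981, plus strand) encodes RANK, the receptor on the precursor cell. It was at 2.99 and 2.03 CPM (110 and 61 counts) in the tenotomy libraries, at 1.80, 1.62 and 1.33 CPM (48, 57 and 43 counts) in the contralateral libraries, and at 3.20 and 1.65 CPM (89 and 48 counts) in uninjured replicates 1 and 2. Tenotomy replicate 1 was higher than replicate 2, and replicate 2 lay just above the highest contralateral library. Its log2 fold change of 0.68 (SE 0.31) did not pass (edgeR adjusted p = 0.134). It passed when only the tenotomy and contralateral libraries were fitted (edgeR adjusted p = 0.0165), within a range of 0.00727 to 0.587 over all alternatives.

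Tnfrsf11b (ENSMUSG00000063727.3; chromosome 15, 54250619 to 54278484, minus strand) encodes the decoy receptor OPG. It was at 1.39 and 1.10 CPM (51 and 33 counts) in the tenotomy libraries and at 0.262, 0.626 and 0.278 CPM (7, 22 and 9 counts) in the contralateral libraries. Uninjured replicates 1 and 2 were at 1.01 and 0.138 CPM (28 and 4 counts). The tenotomy libraries were above all contralateral libraries, of which replicate 2 was the highest. Its log2 fold change of 1.64 (SE 0.63) missed the threshold (edgeR adjusted p = 0.0859). It passed when only the 2 groups were fitted (edgeR adjusted p = 0.00194), within a range of 0.00194 to 0.314 over all alternatives.

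The balance of ligand and decoy was read as the share of Tnfsf11 among the counts of Tnfsf11 and Tnfrsf11b, not corrected for length. It was 8.93% in tenotomy replicate 1 (5 of 56 counts, Clopper-Pearson 95% interval 2.96 to 19.6) and 17.5% in replicate 2 (7 of 40, 7.34 to 32.8). It was 9.68% in uninjured replicate 1 (3 of 31, 2.04 to 25.8). Uninjured replicate 2 had 0 of 4 counts, with a Clopper-Pearson upper limit of 60.2%. The contralateral libraries had 0 of 7, 0 of 22 and 0 of 9 counts, with upper limits of 41.0%, 15.4% and 33.6%. Both tenotomy shares lie within what contralateral replicates 1 and 3 allow, and that of tenotomy replicate 1 within all 3 limits. OPG reads outnumbered RANKL reads in every library. The difference in log2 CPM, Tnfsf11 minus Tnfrsf11b (prior count 2), averaged -2.41 in tenotomy and -2.73 in contralateral libraries, a difference of 0.32 (two-sided exact permutation p = 0.8, n = 2 and 3; the smallest p that the 10 splits allow is 0.2). With a prior count of 0.5 the difference was 1.86 (exact permutation p = 0.2), so its size moved with the constant added to counts of 0.

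**Figure D2:**
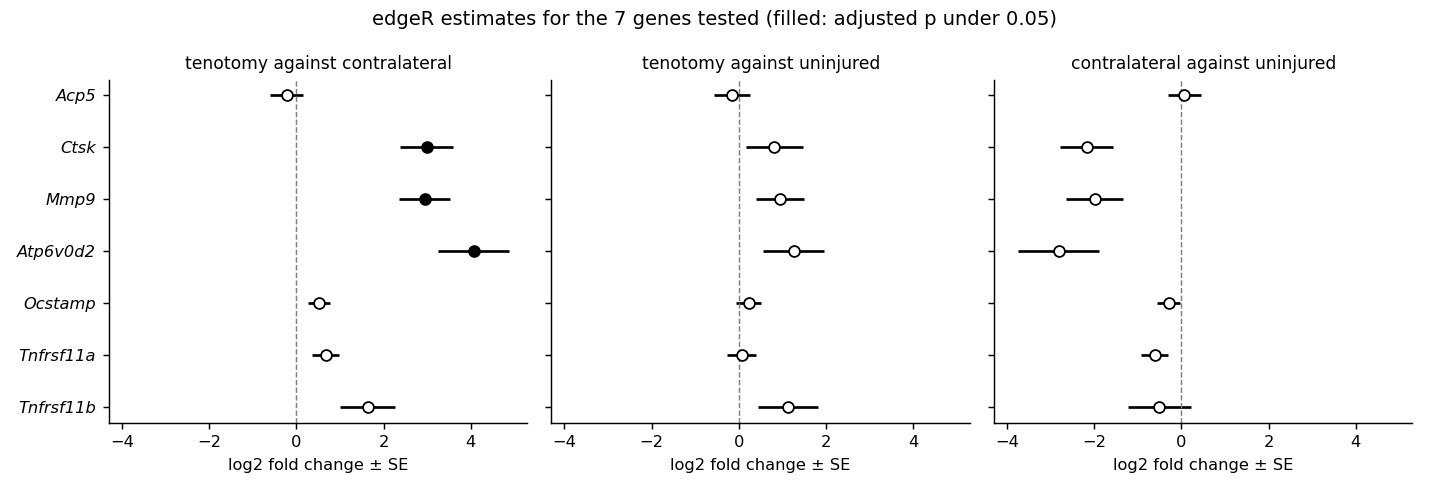
The log2 fold change (horizontal axis) with its standard error (bars) of the 7 genes tested, for each comparison; filled points passed an edgeR adjusted p of 0.05. Ctsk (2.99), Mmp9 (2.94) and Atp6v0d2 (4.07) are filled in the first panel, and no point is filled in the comparisons with the uninjured group.

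Against the uninjured group, none of the 7 genes tested passed. In tenotomy against uninjured, 0.00% of all genes passed an adjusted p of 0.05 and 10.9% had an unadjusted p under 0.05, among them 0 of the 7 genes. The log2 fold changes were 0.81 for Ctsk (SE 0.66, edgeR adjusted p = 0.627), 0.95 for Mmp9, 1.26 for Atp6v0d2 and 1.13 for Tnfrsf11b, with those of Acp5, Ocstamp and Tnfrsf11a between -0.15 and 0.23. The uninjured mean stood between 2 unlike libraries. The difference in log2 CPM between tenotomy replicate 2 and uninjured replicate 1 was 0.05 for Ctsk, 0.17 for Mmp9 and 0.40 for Atp6v0d2. Without uninjured replicate 1, the group rests on replicate 2 alone, assumed to vary like the other groups. Estimates were then 2.63 for Ctsk on the log2 scale, 2.41 for Mmp9, 3.97 for Atp6v0d2 and 3.15 for Tnfrsf11b, and these 4 genes passed (edgeR adjusted p = 3.66e-06 to 0.00661), where 25.1% of all genes did.

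Contralateral against uninjured tendon likewise gave no call among the 7 genes (0.00% of all genes passed, 19.2% at an unadjusted p under 0.05). Of the 7, 3 had an unadjusted edgeR p under 0.05, namely Ctsk (0.00823), Mmp9 (0.0180) and Atp6v0d2 (0.0177). Ctsk had a log2 fold change of -2.17 with SE 0.61 (edgeR adjusted p = 0.215); Mmp9 had -1.99 and Atp6v0d2 -2.81. Ctsk passed with DESeq2 (adjusted p = 0.0173; 1.39% of all genes) and without the filter on low counts (edgeR adjusted p = 0.0281; 1.16%), within a range of 2.31e-07 to 0.820 over all alternatives. With the series of sample numbers as a covariate, the uninjured group rested on replicate 1, because replicate 2 is the only library of its series. The series effect applied to replicate 1 came from the difference between tenotomy replicates 1 and 2, which therefore also entered the estimates. The log2 fold changes were then -2.93 for Ctsk, -2.80 for Mmp9, -3.59 for Atp6v0d2 and -1.58 for Tnfrsf11a. Without uninjured replicate 2, when replicate 1 alone stood for the group, Ctsk (-2.96), Mmp9 (-2.71), Atp6v0d2 (-3.70), Tnfrsf11a (-1.02) and Tnfrsf11b (-1.32) passed as lower in contralateral tendon (edgeR adjusted p = 2.31e-07 to 0.0429), where 32.0% of all genes did. Without uninjured replicate 1 instead, none of the 7 passed (0.617% of all genes did), with log2 fold changes of -0.37 for Ctsk, -0.54 for Mmp9 and -0.11 for Atp6v0d2.

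Ranked per transcript length by mean TPM, the order of levels at the tenotomy site was Ctsk, Acp5, Atp6v0d2, Tnfrsf11a, Tnfrsf11b, Mmp9, Ocstamp, Tnfsf11, Dcstamp and Oscar. Ctsk was at 2.84 TPM ± 0.257 (SD, n = 2), Acp5 at 0.271 ± 0.0666 and Atp6v0d2 at 0.115 ± 0.0332. Of neighbours in this order, the libraries of Atp6v0d2 and Tnfrsf11a overlapped and the other pairs did not. In contralateral tendon Ctsk (0.380 TPM ± 0.127, n = 3) and Acp5 (0.321 ± 0.1097) came first and overlapped, and Atp6v0d2 stood in eighth place at 0.00591 ± 0.00149 TPM. TPM are relative to totals of which the most abundant features take most.

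Among the 47 other genes of the pathway in 5 lists, 38 had enough reads to be tested between tenotomy and contralateral tendon, and 19 passed as higher and 3 as lower, where 13.6% of all genes tested passed as higher and 15.4% as lower. The median log2 fold change of these 38 was 0.74, beside -0.001 over all genes tested. Some of them, such as Vdr, Ptgs2 and Car2, passed the filter on low counts with the help of libraries in which they were high. These shares therefore do not describe the whole lists. The counts fell to 0 in both directions when any tenotomy or contralateral library was left out, as for all genes. With length-scaled TPM, 13 passed as higher and 2 as lower (20.2% of all genes passed in either direction). Against a 1.5-fold change 5 passed as higher and 1 as lower (9.76% of all genes in either direction). Of the genes described below as changed, Csf1r, Tyrobp, Trem2, Nfatc1, Tcirg1, Irf8, Bcl6 and Vdr did not pass that test (edgeR adjusted p = 0.0505 to 0.515). Nor did Cyld, since Car2 was the only pathway gene that passed it as lower.

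Precursor cytokines, receptors and adaptors numbered 13, all tested, of which 8 rose and none fell, beside 13.6% of all genes that passed as higher and 15.4% as lower. Csf1r, the receptor for macrophage colony-stimulating factor, rose from 5.47, 7.43 and 6.03 CPM to 15.6 and 15.8 CPM (a change of 1.31 on the log2 scale with SE 0.30; edgeR adjusted p = 0.0203). Its ligand gene Csf1 was at 6.42 and 6.47 CPM against 5.26 to 7.35 CPM, and Traf6, the adaptor of RANK, at 2.88 and 2.80 CPM against 2.66 to 3.36 CPM. Neither differed past the threshold (edgeR adjusted p = 0.725 and 0.661). The largest changes of the list were those of Trem2 (log2 fold change 2.59, edgeR adjusted p = 0.0252) and Tyrobp (2.57, edgeR adjusted p = 0.0227), a receptor and its signalling partner in macrophages and osteoclasts. In uninjured replicates 1 and 2, Csf1r was at 15.8 and 7.26 CPM, Trem2 at 2.66 and 0.447 CPM and Tyrobp at 3.92 and 0.619 CPM. Replicate 1 was thus above both tenotomy libraries for Trem2 (2.31 and 2.27 CPM) and Tyrobp (3.73 and 3.43 CPM), and at their level for Csf1r.

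Of 8 transcription factors, 5 rose and none fell, beside the same 13.6% and 15.4% of all genes. Nfatc1, the factor induced by RANK signalling, rose from 6.82, 7.34 and 8.07 CPM to 11.7 and 11.1 CPM (log2 fold change 0.62, SE 0.14, edgeR adjusted p = 0.0206). Its levels in uninjured replicates 1 and 2 were 7.26 and 6.30 CPM, inside and below the contralateral range. Fos (log2 fold change 2.595, edgeR adjusted p = 0.0167), a component of AP-1, and Spi1 (1.76, edgeR adjusted p = 0.0170), which encodes PU.1, changed most. Fos was at 5.17 and 4.50 CPM in the tenotomy libraries and 2.62 and 1.41 CPM in uninjured replicates 1 and 2. Spi1 was at 1.52 and 1.13 CPM in the tenotomy libraries and 1.51 and 0.723 CPM in uninjured replicates 1 and 2.

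The acid secretion and attachment list had 11 genes, 8 of them tested, and 2 rose and 1 fell (13.6% and 15.4% of all genes). Itgb3, the β3 chain of the integrin by which osteoclasts attach, rose from 1.20 to 1.54 CPM up to 4.19 and 3.43 CPM (log2 fold change 1.48, SE 0.28, edgeR adjusted p = 0.0167). Tcirg1, a proton pump subunit of osteoclasts, rose too (log2 fold change 1.26, SE 0.36, edgeR adjusted p = 0.0359), though with length-scaled TPM it did not pass (log2 fold change 0.32, edgeR adjusted p = 0.611). Tcirg1 was at 4.49 and 4.77 CPM in the tenotomy libraries and 4.96 and 2.00 CPM in uninjured replicates 1 and 2. Itgb3 was at 2.91 and 1.45 CPM in uninjured replicates 1 and 2. Car2, the carbonic anhydrase that supplies protons in osteoclasts and is also made by other cells, was lower than in contralateral tendon (log2 fold change -2.09, SE 0.36, edgeR adjusted p = 0.0167). It had 7 and 4 counts in the tenotomy libraries against 18, 26 and 23 in the contralateral libraries. Uninjured replicates 1 and 2 had 5 and 8 counts, so they too lay below every contralateral library. Contralateral against uninjured, the difference did not pass (edgeR adjusted p = 0.215). Calcr, the calcitonin receptor of mature osteoclasts, had 0 counts in both tenotomy libraries, 0, 1 and 1 in the contralateral libraries and 0 and 4 in uninjured replicates 1 and 2.

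Of 4 inhibitors of osteoclast formation, 1 rose and 2 fell (13.6% and 15.4% of all genes). Irf8 (log2 fold change 1.86, SE 0.47, edgeR adjusted p = 0.0249), a transcription factor of macrophages, was higher at the tenotomy site. Bcl6, a transcriptional repressor, fell (log2 fold change -0.88, SE 0.21, edgeR adjusted p = 0.0218), and so did Cyld (-0.66, edgeR adjusted p = 0.0330). In uninjured replicates 1 and 2, Irf8 was at 2.01 and 0.482 CPM, beside 2.56 and 2.17 CPM in the tenotomy libraries. Bcl6 was at 4.46 and 7.16 CPM, beside 4.90 and 4.47 CPM. Cyld was at 6.36 and 8.71 CPM, beside 6.20 and 5.43 CPM.

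Of 11 genes that raise RANKL or carry such signals, 5 were tested, and 3 rose and none fell (13.6% and 15.4% of all genes). Ptgs2, the enzyme of prostaglandin synthesis COX-2, was at 2.28 and 2.40 CPM (84 and 72 counts) against 0.112, 0.341 and 0.124 CPM (3, 12 and 4 counts) (log2 fold change 3.52, SE 0.51, edgeR adjusted p = 0.0167). Uninjured replicates 1 and 2 were at 0.503 and 0.103 CPM, so replicate 1 was below both tenotomy libraries. Vdr, the vitamin D receptor, had 22 counts in each tenotomy library and 1 to 4 in the contralateral ones (log2 fold change 2.92, SE 0.71, edgeR adjusted p = 0.0228). It had 10 and 1 counts in uninjured replicates 1 and 2. With length-scaled TPM, neither passed (edgeR adjusted p = 0.0924 for Ptgs2 and 0.0543 for Vdr). The cytokine genes Il6, Il11, Osm, Il1b, Tnf and Il17a were removed by the filter, with at most 17 counts in any library.

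**Figure D3:**
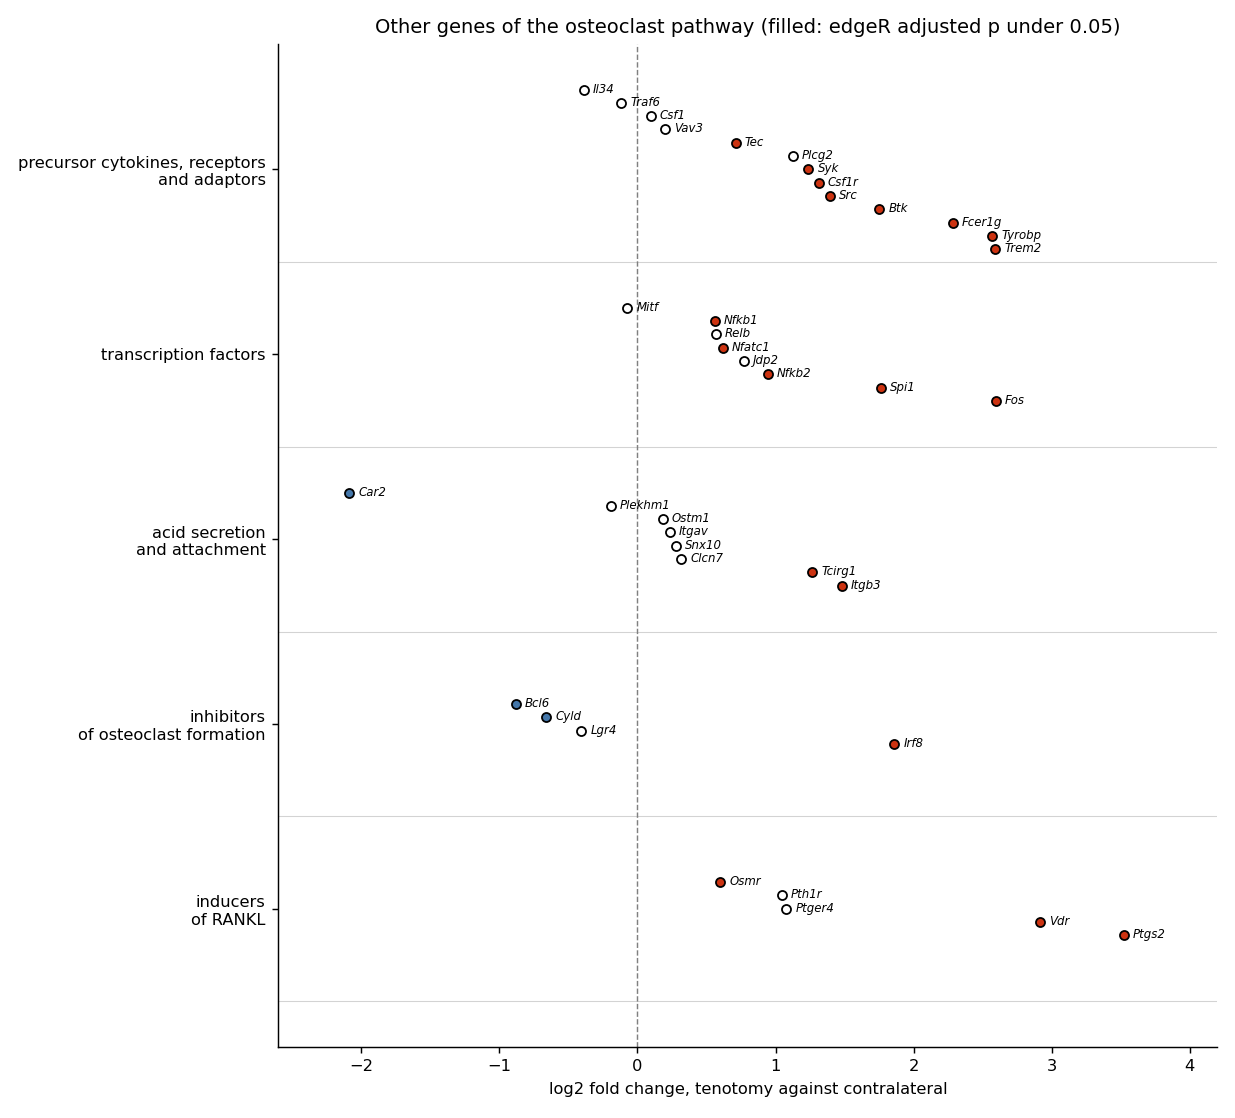
The log2 fold change between tenotomy and contralateral tendon (horizontal axis) of the 38 pathway genes tested, in their lists; red points passed as higher and blue as lower (edgeR adjusted p under 0.05). The largest values are Ptgs2 (3.52) and Vdr (2.92), and the lowest is Car2 (-2.09).

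Markers of several other cell types also differed between tenotomy and contralateral tendon, in both directions. All 11 macrophage markers were tested and 9 passed as higher at the tenotomy site, beside 13.6% of all genes. Log2 fold changes of the 11 ranged from 1.30 to 2.57. Their summed level was 122.3 and 125.1 CPM in the tenotomy libraries, 26.2 to 32.5 CPM in contralateral tendon, and 122.6 and 33.0 CPM in uninjured replicates 1 and 2. As for Ctsk, Mmp9 and Atp6v0d2, the sum was high in both tenotomy libraries and in uninjured replicate 1 and low in the other libraries, and its part in their difference was not tested. The hypertrophic chondrocyte list of 3 genes summed to 30.5 and 31.8 CPM at the tenotomy site and 0.487 to 0.655 CPM in contralateral tendon, with Mmp13 at 1111 and 933 counts against at most 3. Col10a1 in that list was at 9 and 21 counts in the tenotomy libraries and 13 to 21 in the contralateral ones, and Ihh at no more than 1 count. This list's part in the result was likewise not tested.

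Neutrophil markers, relevant to Mmp9, summed to 0.952 and 0.833 CPM at the tenotomy site and 0.262 to 0.455 CPM in contralateral tendon, with 1 of 10 genes tested, which did not pass, and Mmp8 at 0 in all libraries. T cell markers, relevant to Tnfsf11, summed to 2.88 and 3.33 CPM against 1.20 to 1.84 CPM, and of 3 tested (of 7) 1 passed as higher (13.6% of all genes). B cell markers summed to 0.789 and 0.967 CPM against 0.370 to 0.649 CPM. Osteoblast and osteocyte markers summed to 1.74 and 1.67 CPM at the tenotomy site and 6.53 to 10.3 CPM in contralateral tendon, and Sost was at 0 in all libraries. Of the 3 tested of 8, Ibsp and Alpl passed as lower (15.4% of all genes) and Phex did not pass. Ibsp, the gene of bone sialoprotein, made up most of the contralateral sum, at 8.40, 5.78 and 4.02 CPM against 0.0816 and 0.09999 CPM in the tenotomy libraries. Skeletal muscle markers summed to 864 and 870 CPM at the tenotomy site and 7194 to 9942 CPM in contralateral tendon, and all 9 passed as lower (15.4% of all genes). Tendon markers summed to 308 and 305 CPM against 148 to 246 CPM. In uninjured replicates 1 and 2 the sums were 1.44 and 0.344 CPM for neutrophil, 5.17 and 1.72 CPM for T cell and 1.15 and 1.07 CPM for B cell markers. They were 2.695 and 4.44 CPM for osteoblast and osteocyte, 1054 and 7612 CPM for muscle and 290 and 224 CPM for tendon markers. Neutrophil, T cell and B cell sums of replicate 1 were thus above both tenotomy libraries. The part of these lists in the differences of the osteoclast genes was not tested.

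**Figure D4:**
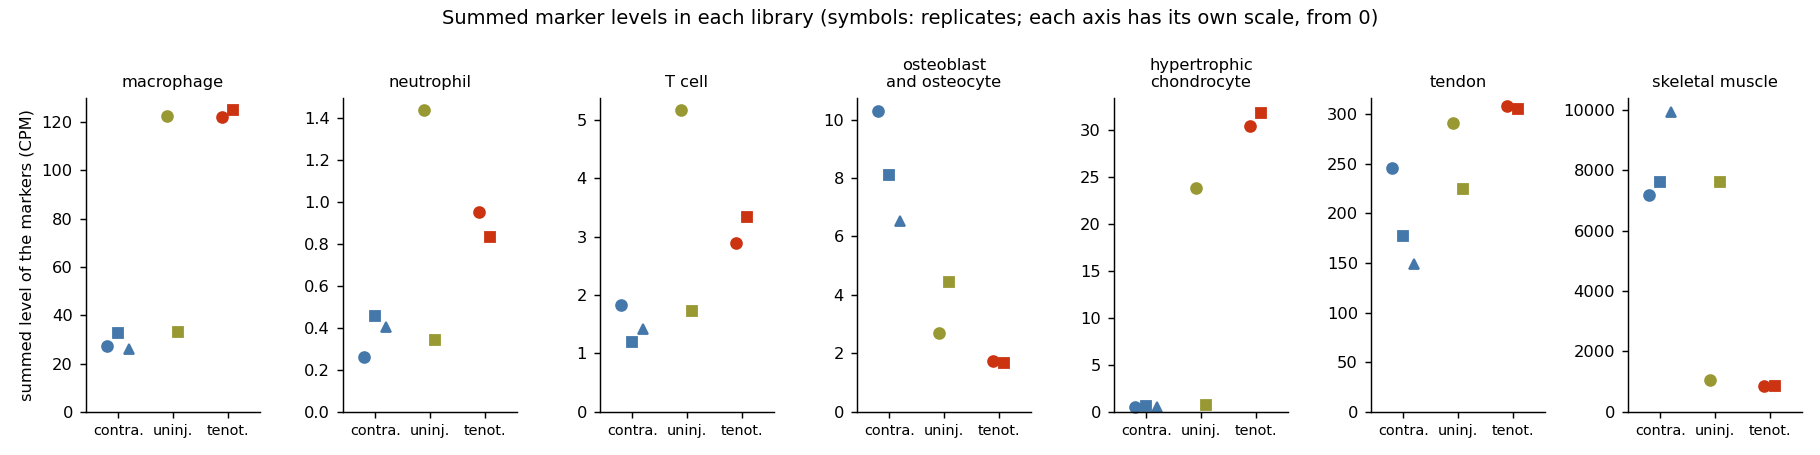
Summed level of the markers of 7 cell types in each library (vertical axes in CPM, each with its own scale from 0), by group; symbols are replicates. The macrophage sum is high in both tenotomy libraries and in uninjured replicate 1, where the muscle sum (1054 CPM) is low. The hypertrophic chondrocyte sum is high in the same libraries through Mmp13. That gene was at 30.2 and 31.1 CPM in tenotomy replicates 1 and 2 and 23.0 CPM in uninjured replicate 1. Col10a1 and Ihh of that list do not separate tenotomy from contralateral libraries.

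Genes of like pattern were found by the Euclidean distance between centred log2 CPM profiles over 7 libraries, among genes with a mean of at least 1. Those nearest to Ctsk were Thbs2 (distance 0.37), Mmp2 (0.37) and Mest (0.41), with Pearson r of 0.999, 0.996 and 0.995. Thbs2 encodes thrombospondin 2 and Mmp2 gelatinase A, matrix proteins made by fibroblasts, and Mest is an imprinted gene. Thbs2 was at 113 and 116 CPM in the tenotomy libraries, 12.7 to 21.8 CPM in the contralateral ones and 104 and 22.3 CPM in uninjured replicates 1 and 2. Nearest to Acp5 were Rabac1 (distance 0.51, r = 0.889), Ets2 (0.52, r = 0.910) and Mrpl33 (0.56, r = 0.861). These values describe 7 libraries that fall into separate sets.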

How the data were processed

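Per the labels' protocols, RNA was extracted with Trizol and a column and libraries were made with a TruSeq kit. The submitters' processing notes list kallisto, FastQC 0.11.4 and the build GRCh38, although every transcript ID in the files is a mouse ID. Estimated counts deposited by the authors are unnormalized reads per transcript, and the TPM deposited by the authors are scaled by effective length. Of 103639 transcripts, 101510 matched GENCODE M21 (GRCm38) without version. Estimated counts were summed per gene and rounded. Features were filtered with filterByExpr (minimum count 10), scaled by TMM and tested with edgeR 4.0.16 (R 4.3.3) in 1 fit of 7 libraries with 3 group means; P-values were adjusted by Benjamini-Hochberg over 16028 features. The standard error is the log2 fold change over the root of F. Exact intervals cover counting error only.

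The genes and lists were chosen with earlier results of these data known. Pathway genes were named by a fixed choice plus the 2 largest changes per list; Cyld, Ibsp, Alpl, Phex, Thbs4, Mmp13, Col10a1, Ihh and genes at low counts were named after their values were seen. A gene of the pathway lists is not reported here and was left out of their counts. The fits were tested on simulated counts. Alternatives used DESeq2 1.42.0, limma 3.58.1 (voom), other scalings, filters, inputs and sample sets.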

Additional observations from a re-analysis of the deposited data

How the results depend on the processing

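Of the 10 genes, 3 passed between tenotomy and contralateral tendon. With the title series as covariate, the tenotomy group rested on replicate 1 alone, and that fit is not counted here. The number passing was 5 without a filter on low counts and 5 with only the 2 groups fitted. It was from 0 to 5 when each library was left out in turn. It was 0 without any tenotomy or contralateral library and 5 without either uninjured library. All genes called higher and lower numbered 2178 and 2465, against 3533 and 3852 with only the 2 groups fitted, 661 and 904 against a 1.5-fold change, 3566 and 3742 without uninjured replicate 1, 3572 and 3764 without uninjured replicate 2, and 0 without any tenotomy or contralateral library. Over all genes, edgeR called 0 in either comparison with uninjured tendon, and DESeq2 called 145 in tenotomy and 223 in contralateral against uninjured. Tenotomy against uninjured tendon, no gene of the 10 passed, and 4 did without uninjured replicate 1 (range 0 to 4 over libraries left out). Contralateral against uninjured, 1 passed with DESeq2 and 1 without a filter. The series covariate left uninjured replicate 1 alone for its group, and leaving out either uninjured library also left 1. For contralateral against uninjured, the number of genes passing in these fits is not given in this section.

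Directions near 0 turned in a few fits, none of them past the threshold. With the series covariate, tenotomy against uninjured rested on tenotomy replicate 2 and uninjured replicate 1 alone. It gave 0.65 for Acp5, -0.0303 for Ocstamp and -0.65 for Tnfrsf11a. The plain difference in log2 CPM between these 2 libraries was 0.63, -0.03 and -0.64. Leaving out a library in that comparison gave -0.57 to 0.45 for Acp5 and -0.33 to 0.62 for Tnfrsf11a. Contralateral against uninjured, Acp5 was -0.0014 with upper quartile scaling and -0.34 to 0.69 with a library left out. Tnfrsf11b was 0.0074 with limma-voom and -1.32 to 1.51 with a library left out. Traf6 was 0.0279 with length-scaled TPM. The RANKL to OPG difference ranged from -0.13 to 0.76 with a library left out. The cause of the other changes was not tested. Upper quartile scaling raised the log2 fold change of Mmp9 from 2.94 to 3.05 and that of Atp6v0d2 from 4.07 to 4.18. The labels give no replicate numbers and do not say whether tenotomy and contralateral libraries came from the same mice. No paired analysis was therefore possible. Fewer than 10 counts in every library limit what can be said of Tnfsf11, Dcstamp and Oscar.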
